A study of Mus musculus with 4 samples.

Results

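A set of 9 transcription factors of blood stem and progenitor cells was followed across fetal liver libraries of mice with the labels wild type and hnRNP L -/-, a genotype of the splicing regulator hnRNP L (a heterogeneous nuclear ribonucleoprotein). They were Meis1, Hoxa9, Hlf, Gata2, Runx1, Erg, Fli1, Lmo2 and Myb, chosen by symbol. All 9 were present among the 22011 genes of the tables, with 17 of the 28283 transcript rows, and all 9 passed the filter on low counts. Total RNA of fetal liver cells was sequenced for 2 samples with the label wild type (WT) and 2 with the genotype hnRNP L -/- (KO). Strains kept in the colony included C57BL/6 and an LckCre transgenic line, but the labels do not state which of them gave these samples, how the gene was deleted or at which embryonic day the livers were taken. Litters are not stated either, and p-values measure only the spread between these 4 libraries.

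Before birth blood forms mainly in the liver, where stem cells sit among erythroblasts, megakaryocytes, endothelium and hepatocytes. Gata2, Lmo2, Runx1, Erg and Fli1 belong to a group of factors that bind together at enhancers of stem and progenitor genes, where Lmo2 bridges DNA-binding partners without binding DNA itself. Meis1 and Hoxa9 are homeodomain proteins that bind DNA as complexes with Pbx proteins, Hlf is a bZIP factor of the PAR family, and Myb is needed for definitive blood formation. None of the 9 is restricted to stem cells: Gata2 and Fli1 are also used by megakaryocytes, Gata2 by mast cells, Erg and Fli1 by endothelium, Lmo2 by erythroblasts and Hlf by hepatocytes.

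The libraries held 70020061 and 111324295 mapped reads in WT and 97490949 and 96260423 in KO. Hnrnpl itself was at 531 CPM (counts per 1000000 reads, on TMM-scaled library sizes) in WT and 274 in KO (log2 fold change -0.95, SE 0.16, edgeR adjusted p = 0.0114), so its transcript was lower but far from absent in the libraries labelled KO. KO replicate 2 stood apart in sex, with 336 reads of Xist against 31498 to 51618 in the other libraries. WT replicate 1 stood apart in its junction reads, of which 3.03% were on unannotated junctions against 0.643% to 0.725% elsewhere. Cardiac marker transcripts summed to 52.1 and 200.3 CPM in WT and to 3.15 and 5.44 in KO. Erythroid and hepatocyte markers were abundant in every library, at summed levels of 18113 to 40699 and 33059 to 67803 CPM.

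The 9 factors spanned a wide range of levels. On the deposited RPKM scale (reads per kilobase of transcript, scaled to mapped reads, the only scale here on which different genes can be compared), Lmo2 was highest at 76.7 and 87.7 in WT and 56.8 and 47.9 in KO. Myb followed at 16.2 and 18.7 in WT and 19.2 and 19.6 in KO, then Fli1 at 9.54 and 9.41 in WT and 12.2 and 12.9 in KO. Meis1 lay at 4.54 and 4.81 in WT and 6.34 and 6.89 in KO. The 4 genes held the same first 4 places in both genotypes, and no neighbours among them overlapped. Below them were Erg at 1.52 and 1.52 in WT and 2.25 and 2.74 in KO, and Runx1 at 1.38 and 1.55 in WT and 1.35 and 1.67 in KO. In WT these neighbours overlapped. Hlf was at 1.07 and 1.08 RPKM in WT and Gata2 at 0.700 and 0.942, and both were below Runx1. In KO, Hlf was at 1.77 and 2.62 and Gata2 at 2.01 and 2.23, and both were above Runx1 there. These Runx1 values are of its transcript row with most reads. Another Runx1 row (NM_001111022) had 1.57 and 1.92 in KO, which overlaps Hlf but not Gata2. Erg, Hlf and Gata2 could not be ordered in KO, since Erg overlapped Hlf and Hlf overlapped Gata2. Hoxa9 was last throughout, at 0.214 and 0.174 in WT and 0.122 and 0.174 in KO. Its values rest on 27 to 44 reads a library, so a change of moderate size was not detectable at this depth.

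**Figure D1:**
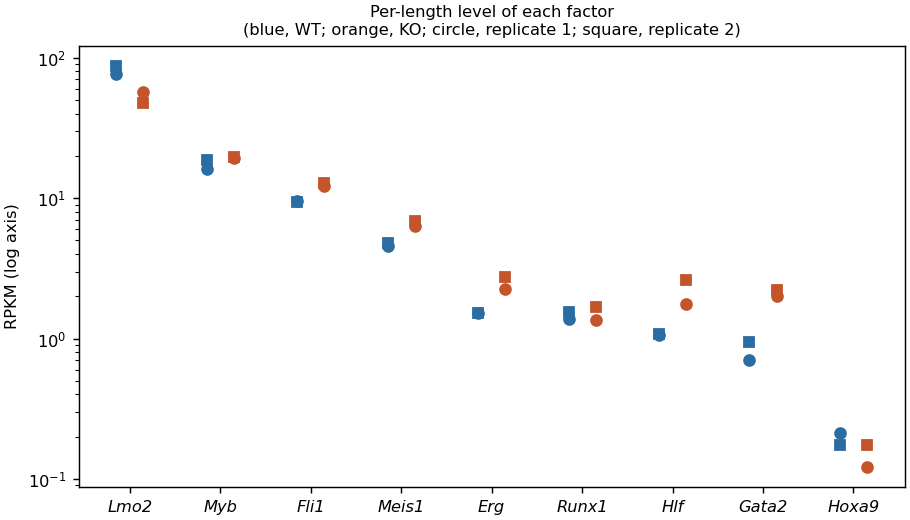
RPKM of each factor (log axis) in the 2 WT (blue) and 2 KO (orange) libraries, ordered by the WT mean; each point is 1 library. Lmo2 lies above the rest in both genotypes, and Hlf and Gata2 pass from below Runx1 in WT to above it in KO. Runx1 is shown by its transcript row with most reads, and on another row its KO values overlap those of Hlf.

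KO was tested against WT by the edgeR quasi-likelihood method for 15028 genes, with a threshold of 0.05 on the Benjamini-Hochberg adjusted p, and fold changes are KO over WT. Over all genes 20.8% passed, 11.4% as higher and 9.44% as lower. Of the 9 factors, 4 were higher (Gata2, Hlf, Erg and Meis1), 1 was lower (Lmo2), and 4 did not pass (Fli1, Myb, Runx1 and Hoxa9). The ranges of KO and WT did not overlap for 7 of the 9, as for 65.2% of all genes; KO lay above for 5 (33.5% of all genes) and below for 2 (31.7%). The median log2 fold change of the 9 was 0.31, beside 0.02 over all tested genes. The calls were sensitive to the number of libraries: 3 of the 9 factors passed without WT replicate 1 or without KO replicate 1, and 1 passed without WT replicate 2 or without KO replicate 2. Gata2 was the factor that passed in each of these 4 fits. In bulk RNA a change in the number of cells of a type and a change in RNA per cell cannot be told apart.

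**Figure D2:**
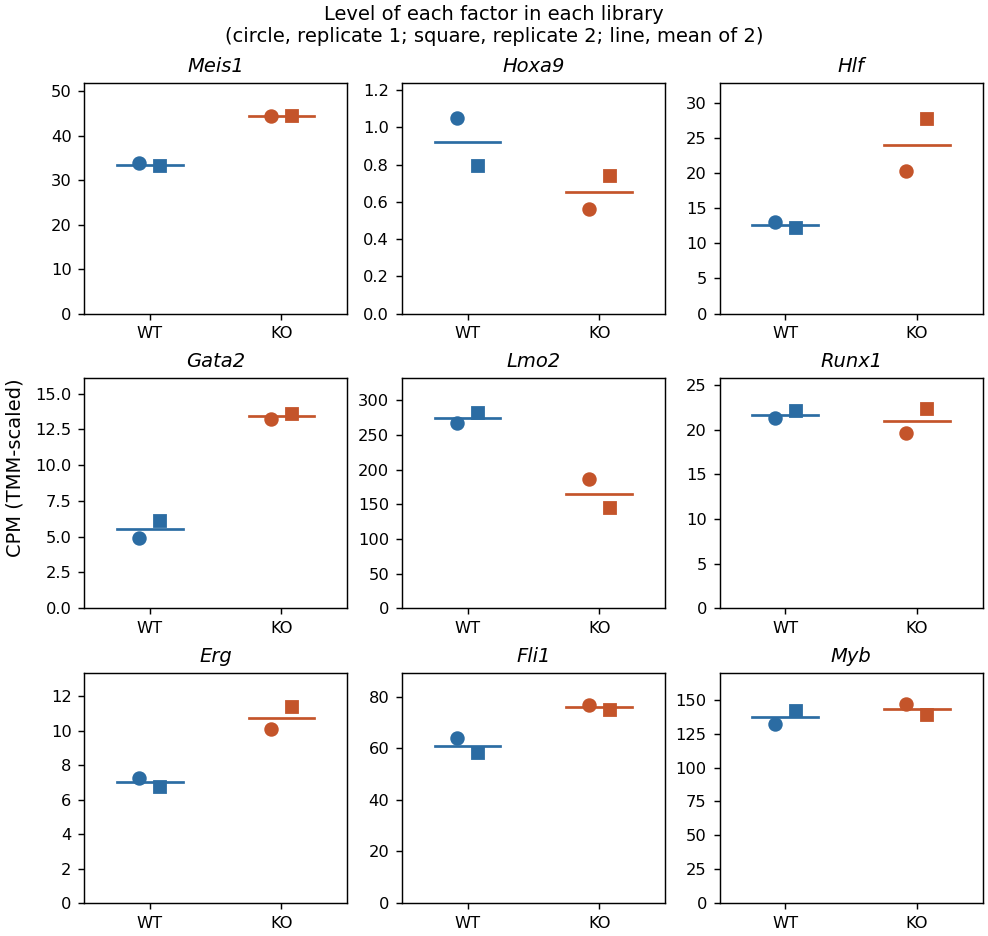
CPM of each factor in every library (axes start at 0; lines, mean of 2 libraries). The KO points of Gata2, Hlf, Erg, Meis1 and Fli1 lie above both WT points, those of Lmo2 and Hoxa9 lie below, and those of Runx1 and Myb overlap with WT.

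Gata2, a zinc-finger factor needed for the upkeep of stem cells and for early megakaryocytes and mast cells, rose furthest. Its transcript (NM_008090, chromosome 6, 88148658 to 88157026, plus strand of a build that the files do not name, as for all positions below unless one is named) had 4.92 and 6.12 CPM in WT and 13.2 and 13.6 CPM in KO. Both KO libraries were above both WT libraries, and the gap between genotypes exceeded the difference within either. The means were 5.52 ± 0.847 and 13.4 ± 0.235 (SD, n = 2), a log2 fold change of 1.27 (SE 0.18, edgeR adjusted p = 0.0081). Leaving out 1 library at a time gave log2 fold changes of 1.13 to 1.45 with edgeR adjusted p of 0.014 to 0.031. Reads across its 5 known junctions moved the same way, with 5 and 9 in WT and 29 and 23 in KO, or 1.03 and 1.04 against 4.06 and 3.31 per 1000000 known junction reads. Junction reads are part of the same libraries and are no separate replicate.

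Lmo2, the LIM-domain bridging protein, was the factor that fell. It had 267 and 282 CPM in WT and 186 and 144 CPM in KO (chromosome 2, 103809714 to 103822035, plus strand). Both KO libraries were below both WT libraries, and the KO libraries differed more from each other than the WT libraries did. The KO mean was 0.601 of WT (log2 fold change -0.73, SE 0.15, edgeR adjusted p = 0.0175). The call did not hold on leaving out WT replicate 2 (edgeR adjusted p = 0.0602) or KO replicate 2 (log2 fold change -0.56, edgeR adjusted p = 0.0621).

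Partners of Lmo2 and Gata2 in the same DNA-bound complex had mostly small negative values. Of 12 listed partners, all tested, 2 were lower and 0 higher, and 10 did not pass. The 2 lower were Tal1, the bHLH factor that Lmo2 joins to DNA, and Zfpm1, the cofactor Fog1 of GATA factors. Tal1 had 876 and 889 CPM in WT and 572 and 524 in KO, which is 0.621 of WT (edgeR adjusted p = 0.0183). Zfpm1 had 346 and 296 CPM in WT and 222 and 228 in KO, or 0.701 of WT (edgeR adjusted p = 0.0326). Ldb1, the dimerising scaffold that Lmo2 binds, had 213 and 209 CPM in WT and 197 and 160 in KO and did not pass (edgeR adjusted p = 0.229). Gata1, which replaces Gata2 on shared sites during red cell maturation, had 383 and 426 CPM in WT and 321 and 284 in KO and did not pass either (edgeR adjusted p = 0.0653). Per length, Gata1 exceeded Gata2 in every library, at 97.7 and 117.7 RPKM in WT and 87.4 and 83.7 in KO. The median log2 fold change of the list was -0.32. No partner passed in 3 of the fits that left out 1 library (WT replicate 1, WT replicate 2 or KO replicate 2), and 1 passed without KO replicate 1; the call of Tal1 reached an adjusted p of 0.0756 in these fits and that of Zfpm1 0.158.

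Erythroid markers were read beside Lmo2. Of 9 erythroid markers, 7 were lower and 0 higher, with a median log2 fold change of -0.76 and a summed level of 40699 and 36717 CPM in WT and 23444 and 18113 in KO. Leaving out WT replicate 1 or KO replicate 2 reduced the lower markers to 1, and leaving out WT replicate 2 to 2, while all 9 were lower without KO replicate 1. None of the 9 was without reads. The part of erythroid cell number in the fall of Lmo2 was not tested.

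The homeodomain factors Meis1 and Hoxa9 differed in their values. Meis1 (chromosome 11, 18780431 to 18918972, minus strand) had 33.9 and 33.2 CPM in WT and 44.4 and 44.5 CPM in KO. The 2 libraries of each genotype were close together and the genotypes did not overlap. The rise was small, a log2 fold change of 0.41 (SE 0.11, edgeR adjusted p = 0.0367). It was of the same size, 0.39 to 0.42, whichever library was left out, but with any of the 4 libraries left out it no longer passed (edgeR adjusted p between 0.0796 and 0.153). Meis1 is also made in heart muscle. All 5 cardiac markers tested were lower in KO, at the summed levels given above, and their part in the Meis1 values was not tested. Hoxa9 (chromosome 6, 52174053 to 52177369, minus strand) had 1.05 and 0.792 CPM in WT and 0.564 and 0.741 in KO, with a log2 fold change of -0.48 (SE 0.42) that did not pass (edgeR adjusted p = 0.443). Strand-specific counting is not stated, and genes of the HoxA cluster can share reads with neighbours and antisense transcripts.

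Of 14 listed Meis, Pbx and Hox genes, 12 were tested and 2 were lower. Pbx3, a homeodomain cofactor of Meis and Hox proteins, had 43.5 and 43.4 CPM in WT and 30.2 and 26.4 in KO, or 0.652 of WT (edgeR adjusted p = 0.0164). Pknox1, a homeodomain protein that competes with Meis proteins for Pbx partners, was at 0.725 of WT (edgeR adjusted p = 0.0325). For both genes the KO libraries lay below both WT libraries. The calls of Pbx3 and Pknox1 were lost on leaving out either WT library or KO replicate 2 (adjusted p up to 0.0655 and 0.142). Hoxa10, a neighbour of Hoxa9 in the HoxA cluster, had 0.248 and 0.324 CPM in WT and 0.125 and 0.039 in KO and did not pass (log2 fold change -1.80, edgeR adjusted p = 0.128), and Hoxa6 and Hoxa7 were too low to test.

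Hlf, a stem cell factor that is also a hepatocyte gene of the daily clock output, rose by 0.93 on the log2 scale (SE 0.18, edgeR adjusted p = 0.0153). It had 13.1 and 12.3 CPM in WT and 20.4 and 27.8 CPM in KO (chromosome 11, 90197849 to 90252231, minus strand). The genotypes did not overlap, but KO replicate 2 was well above KO replicate 1, and the call was lost without KO replicate 2 (log2 fold change 0.69, edgeR adjusted p = 0.0584) and without WT replicate 2 (edgeR adjusted p = 0.0599). Its PAR relatives Tef and Dbp and the opposing repressor Nfil3 did not pass. Tef had 28.4 and 29.0 CPM in WT and 35.3 and 34.1 in KO (edgeR adjusted p = 0.119), Dbp was at 0.743 to 1.92 CPM (edgeR adjusted p = 0.293), and Nfil3 had a mean of 9.65 ± 2.86 CPM in WT and 7.09 ± 0.156 in KO (SD, n = 2; edgeR adjusted p = 0.201). Of 7 hepatocyte markers, 2 were higher and 0 lower (3 higher without WT replicate 1 and 1 in each of the other fits that left out 1 library). The median log2 fold change of these markers was 0.67, with summed levels of 46442 and 33059 CPM in WT and 67803 and 56772 in KO, and all had reads. The part of hepatocyte content in the rise of Hlf was not tested.

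The Ets factors Erg and Fli1 both had higher values in KO. Erg (chromosome 16, 95581811 to 95751972, minus strand), needed for stem cell upkeep and for endothelium, had 7.27 and 6.75 CPM in WT and 10.1 and 11.4 CPM in KO. The log2 fold change was 0.62 (SE 0.17, edgeR adjusted p = 0.0395). The call was lost whichever library was left out, with log2 fold changes of 0.53 to 0.70 and edgeR adjusted p from 0.0533 (without KO replicate 1) and 0.0905 (without WT replicate 1) up to 0.153 (without WT replicate 2). Fli1 (chromosome 9, 32229793 to 32348953, minus strand), an activator of platelet genes, had 63.8 and 58.2 CPM in WT and 76.8 and 74.8 CPM in KO. Its groups did not overlap, but the log2 fold change of 0.31 (SE 0.11) did not pass (edgeR adjusted p = 0.0741).

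Of 15 other Ets family genes, 5 were higher and 0 lower. They were Ets1, a factor of lymphoid and endothelial cells, from 61.7 ± 3.21 to 102 ± 11.6 CPM; Etv3 from 21.0 ± 0.934 to 35.6 ± 2.94; Ets2 from 33.0 ± 0.000362 to 58.2 ± 11.2; Elk3 from 19.6 ± 2.41 to 35.6 ± 5.79; and Etv5 from 7.52 ± 0.481 to 15.0 ± 4.52 (SD, n = 2; edgeR adjusted p of 0.0111, 0.0111, 0.0134, 0.0143 and 0.0232). Etv5 had the largest fold of the family, 2.00-fold. Ets1, Ets2 and Etv3 passed whichever library was left out. Elk3 was lost without KO replicate 2 (adjusted p = 0.0598), and Etv5 on leaving out either WT library or KO replicate 2 (adjusted p up to 0.0873); 3 of the family were higher and 1 was lower without KO replicate 2. Sfpi1, the myeloid and B cell factor PU.1, had 26.8 and 20.1 CPM in WT and 25.1 and 19.3 in KO (edgeR adjusted p = 0.799). The median of the family was 0.02, the same as over all genes.

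Markers of endothelium, where Erg, Fli1 and Ets1 are also made, were read beside them. Of 12 such markers, 6 were higher, 0 lower and 6 did not pass, with a median log2 fold change of 0.52 and a summed level of 573 and 628 CPM in WT and 913 and 962 in KO. The higher markers numbered 2 without WT replicate 1, 6 without WT replicate 2 or KO replicate 1, and 4 without KO replicate 2. The pan-endothelial cadherin Cdh5 had 79.8 and 82.0 CPM in WT and 100.4 and 90.0 in KO and did not pass (edgeR adjusted p = 0.158), while the sinusoidal receptor Stab2 rose to 2.00-fold (edgeR adjusted p = 0.0082). All 12 had reads. The part of endothelial content in the values of Erg and Fli1 was not tested.

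Runx1, the factor that first makes stem cells from endothelium, and Myb had values that overlapped between genotypes. Runx1 (chromosome 16, 92601711 to 92697573 for the transcript with most reads, minus strand) had 21.3 and 22.1 CPM in WT and 19.6 and 22.3 in KO. Its log2 fold change was -0.05 (SE 0.13, edgeR adjusted p = 0.817). Myb (chromosome 10, 20844736 to 20880790, minus strand) had 133 and 142 CPM in WT and 147 and 139 in KO. Its log2 fold change was 0.06 (SE 0.11, edgeR adjusted p = 0.721).

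Of 7 listed Runx partners, 1 was higher and 1 lower. Cbfb, the subunit that stabilises Runx proteins on DNA, had 16.5 and 17.9 CPM in WT and 23.6 and 29.5 in KO, 1.55-fold higher (edgeR adjusted p = 0.0276). That call was lost on leaving out either WT library or KO replicate 2 (adjusted p up to 0.129). Runx1t1, the corepressor Eto, had 62.4 and 48.2 CPM in WT and 24.9 and 23.1 in KO, or 0.434 of WT (edgeR adjusted p = 0.00673), and passed whichever library was left out (highest adjusted p 0.0288). Of 4 genes of the Myb family and its coactivators, Mybl2, the cell cycle relative of Myb, was the 1 lower, from 135 and 117 CPM in WT to 77.2 and 73.5 in KO (0.600 of WT, edgeR adjusted p = 0.00993). It passed whichever library was left out. The coactivators Crebbp and Ep300 had log2 fold changes of 0.06 and -0.04.

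**Figure D3:**
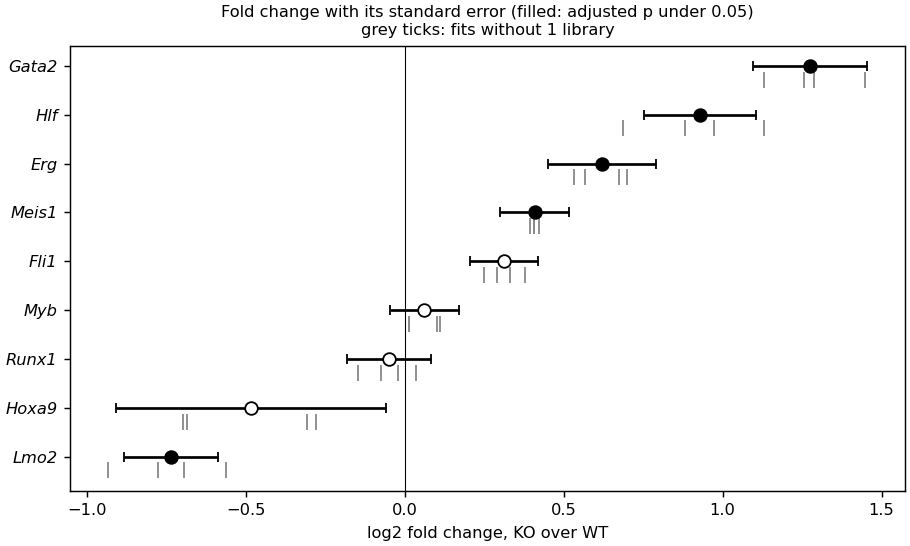
Log2 fold change of each factor, KO over WT, with its standard error (filled points passed the test); grey ticks are the 4 fits without 1 library. Gata2 is at 1.27 and Lmo2 at -0.73, and the ticks of Hlf (0.69 to 1.13) and Lmo2 (-0.93 to -0.56) spread more than those of Meis1 (0.39 to 0.42).

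Known targets and other regulators of the same cells were read from lists. Of 14 other stem cell regulators, 8 were higher and 0 lower, with a median of 0.62. Mycn, a Myc family factor of stem cells, had 5.54 and 7.11 CPM in WT and 15.8 and 18.9 in KO (2.73-fold, edgeR adjusted p = 0.00716). Myc itself had 48.4 and 64.0 CPM in WT and 92.3 and 99.9 in KO (1.71-fold, edgeR adjusted p = 0.0154), the immediate-early factor Egr1 was 1.96-fold higher (edgeR adjusted p = 0.0181), and Ikzf2 1.56-fold (edgeR adjusted p = 0.0208). Mycn passed whichever library was left out. Myc was lost without KO replicate 2 (adjusted p = 0.0597), Egr1 without WT replicate 2 or KO replicate 2 (up to 0.0811), and Ikzf2 on leaving out either WT library or KO replicate 2 (up to 0.0945). The number higher fell to 3 on leaving out WT replicate 1, to 2 on leaving out WT replicate 2 and to 1 on leaving out KO replicate 2, and was 7 without KO replicate 1. The polycomb gene Bmi1, needed for self-renewal, had 24.3 and 25.2 CPM in WT and 20.8 and 26.4 in KO (edgeR adjusted p = 0.763).

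Of 19 genes known as targets of 1 or more of the 9 factors, 8 were higher and 1 lower, and 7 or 8 were higher whichever library was left out. Mpo, a granule enzyme of early granulocytes, had 118 and 131 CPM in WT and 365 and 325 in KO (2.77-fold, edgeR adjusted p = 0.00415). Gp1ba, a platelet receptor activated by Fli1 and GATA factors, had 10.8 and 9.45 CPM in WT and 20.2 and 22.7 in KO (2.12-fold, edgeR adjusted p = 0.0081). Hdc, the histamine-forming enzyme of mast cells and basophils that Gata2 activates, had 21.0 and 21.3 CPM in WT and 57.8 and 39.7 in KO (2.31-fold, edgeR adjusted p = 0.0091). The 1 lower was Flt3, a receptor of early lymphoid and myeloid progenitors, with 8.42 and 7.72 CPM in WT and 2.61 and 3.76 in KO (0.396 of WT, edgeR adjusted p = 0.0122). Kit, the stem cell factor receptor, had 70.7 and 112 CPM in WT and 86.6 and 86.9 in KO, and Cd34 83.7 and 63.0 in WT and 52.8 and 61.7 in KO; neither passed (edgeR adjusted p = 0.801 and 0.141). Of 7 granulocyte markers, Mpo among them, 4 were higher and 0 lower (median 0.94), with summed levels of 432 and 391 CPM in WT and 798 and 664 in KO; 3 to 5 were higher on leaving out 1 library, and 2 were lower without KO replicate 1. Of 7 lymphoid markers, 6 were tested, 3 were lower and 0 higher (median -1.36), with summed levels of 11.02 and 7.81 CPM in WT and 3.63 and 3.63 in KO; 1 was lower on leaving out WT replicate 1, KO replicate 1 or KO replicate 2. The part of these cell types in the values of Mpo and Flt3 was not tested.

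Surface markers of stem and progenitor cells were thus mixed. Of 11 markers, 4 were higher and 1 lower, with a median of 0.40 and summed levels of 264 and 300.2 CPM in WT and 319 and 345 in KO. Of 11 megakaryocyte markers, 8 were higher and 0 lower, with a median of 0.63 and summed levels of 889.9 and 1010 CPM in WT and 1642 and 1391 in KO. Leaving out replicate 1 of either genotype reduced the count to 4, leaving out WT replicate 2 to 5 and leaving out KO replicate 2 to 7. Of 7 mast cell and basophil markers, 6 were tested and 1 was higher. The connective tissue mast cell proteases Tpsb2 and Cma1 were at 0.104 to 0.743 CPM and Mcpt4 was too low to test, while Cpa3 had 14.7 and 11.3 CPM in WT and 17.5 and 17.6 in KO (edgeR adjusted p = 0.101). The part of these cell types in the rise of Gata2 was not tested.

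**Figure D4:**
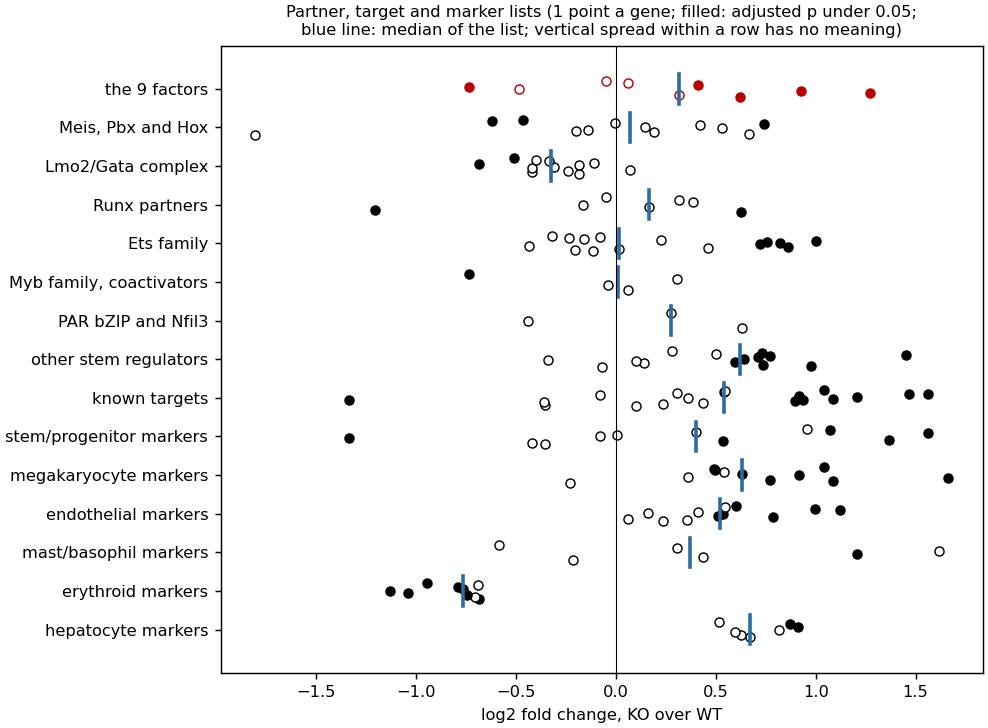
Log2 fold change of every tested gene in the partner, target and marker lists (1 point a gene, filled where the adjusted p was under 0.05; blue line, median of the list). The medians are -0.32 for the Lmo2/Gata complex, 0.62 for other stem regulators, 0.54 for known targets and -0.76 for erythroid markers; Gata2 is the rightmost of the 9 factors in red.

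Genes with the most similar pattern were taken as those at the smallest Euclidean distance in centred log2 CPM over the 4 libraries, among about 11244 genes whose mean log2 CPM was 2 or more. With 4 libraries in 2 groups this is a description. Hlf was closest to Hnf4a, the nuclear receptor that defines hepatocytes (103 and 98.0 CPM in WT, 157 and 222 in KO; distance 0.0413), and next to Egr1 (0.0571). Lmo2 was closest to Epb4.2, a protein of the red cell membrane skeleton (834 and 887 CPM in WT, 559 and 453 in KO; distance 0.0522), and next to Tuba1c (0.0532). Gata2 was closest to Dag1, the dystroglycan gene (41.8 and 49.4 CPM in WT, 105 and 108 in KO; distance 0.0785), and to Paqr7 (0.102). Erg was closest to Sc4mol and Cxxc5, Meis1 to Atp13a2 and Trip10, and Fli1 to Ubac2 and Top1mt, at distances of 0.0102 to 0.0247. Runx1 was closest to Psmd11 and Adss, Myb to Tmem68 and Alg11, and Hoxa9 to Plbd1 and Spen, at 0.00943 to 0.0699.

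Splicing was read from 69 known junctions of the 9 factors, of which 67 had a read. The use of each junction against the rest of its gene was compared by diffSpliceDGE (edgeR) for 103312 known junctions that had 10 or more reads summed over the libraries, of which 2 passed (0.00194%). Of 56 junctions tested in 7 of the factors, 0 passed in diffSpliceDGE of edgeR, with an adjusted p of 1.00 for each, and 2 had an unadjusted p under 0.05, where 2.38% of all junctions did. Hlf and Hoxa9 had too few junctions with reads to enter. The 2 were in Fli1 and Myb. The second Fli1 junction (chromosome 9, 32273424 to 32284147) had 3 and 3 reads in WT and 15 and 22 in KO (unadjusted p = 0.0198), while the first had 30 and 94 in WT and 100 and 117 in KO. The Myb junction (chromosome 10, 20865131 to 20865992) had 9 and 5 reads in WT and 1 and 1 in KO (unadjusted p = 0.0289), and it is the upstream edge of a cassette exon. In the other genes the smallest unadjusted diffSpliceDGE p was 0.0605 in Runx1, 0.141 in Meis1, 0.340 in Erg, 0.350 in Gata2 and 0.634 in Lmo2. With so few calls over all junctions and few reads on many of these, 0 of 56 does not show that junction use was unchanged.

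Cassette exons, which can be included or skipped, were annotated in Meis1, Runx1 and Myb, and their sequences are shown because these are the stretches by which the isoforms differ. The files' exons were matched to GENCODE M21 on GRCm38 by length and by the lengths of their neighbours. For Meis1 only the upstream neighbour was compared by length, since the downstream neighbour is the last exon. HnRNP L is known to bind CA-rich RNA, and ACACA was searched on the transcript strand, to be marked in capitals; none of the 3 exons holds it in its coding bases. Of coding exons of the same length, 22.0% of 505 (192 bases, as in Runx1) and 41.3% of 46 (357 bases, as in Myb) do. The Runx1 exon is at chr16:92644154-92644345, minus strand. The Myb exon is at chr10:21144969-21145325, minus strand, and its first 300 bases are shown. The Meis1 stretch is at chr11:18884027-18884082, minus strand, and is the 56 coding bases of its 95-base exon.
Runx1: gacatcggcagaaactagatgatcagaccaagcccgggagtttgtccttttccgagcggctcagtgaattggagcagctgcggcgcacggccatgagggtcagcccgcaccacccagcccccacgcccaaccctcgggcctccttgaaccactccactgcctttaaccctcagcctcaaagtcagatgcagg
Myb: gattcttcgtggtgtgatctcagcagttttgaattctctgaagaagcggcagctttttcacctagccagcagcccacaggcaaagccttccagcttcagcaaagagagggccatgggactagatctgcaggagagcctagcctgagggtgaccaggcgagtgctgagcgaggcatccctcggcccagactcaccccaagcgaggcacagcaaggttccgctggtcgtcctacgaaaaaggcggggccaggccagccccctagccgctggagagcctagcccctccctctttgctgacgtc
Meis1: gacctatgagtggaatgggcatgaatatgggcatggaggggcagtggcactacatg

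Inclusion was measured in 2 ways. Junction reads at the upstream exon either entered the cassette exon or skipped it, and reads inside the exon came from the difference between transcript rows with and without it. In Runx1, whose 192-base exon keeps the reading frame and lies after the DNA-binding Runt domain, skipping reads were 0 and 2 in WT and 5 and 10 in KO, against 11 and 3 entering reads in WT and 5 and 2 in KO. The skipping share was 0% in WT replicate 1 (exact Clopper-Pearson 95% interval up to 28.5%), 40.0% in WT replicate 2 (5.27% to 85.3%), 50.0% in KO replicate 1 (18.7% to 81.3%) and 83.3% in KO replicate 2 (51.6% to 97.9%). Both KO shares were above both WT shares, but the intervals of WT replicate 2 and of both KO libraries overlap, and the test of the skipping junction gave an unadjusted p of 0.0605. At the downstream edge the entering reads were 0 and 3 in WT and 0 and 2 in KO, too few to give a share in WT replicate 1. With the same skipping reads, the share there was 40.0% of 5 reads in WT replicate 2. It was 100% of 5 reads in KO replicate 1 and 83.3% of 12 in KO replicate 2. Reads inside the exon did not separate KO from WT. They numbered 18 and 18 in WT and 20 and 26 in KO, a density of 96.8% and 53.7% of the rest of the transcript in WT and 78.4% and 83.8% in KO, so that both KO values lay between the WT values.

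The Myb exon of 357 bases, which keeps the reading frame, gave different values by each measure. Reads inside it numbered 88 and 117 in WT and 94 and 118 in KO, a density of 20.1% and 14.4% of the rest of the transcript in WT and 12.9% and 16.1% in KO, and the genotypes overlapped. At its upstream edge the skipping share was 40.0% (16.3% to 67.7%) and 84.8% (68.1% to 94.9%) in WT and 96.7% (82.8% to 99.9%) and 96.6% (82.2% to 99.9%) in KO. At its downstream edge the share was 19.4% and 53.8% in WT and 55.8% and 50.0% in KO. WT replicate 1, the library with most unannotated junction reads, stood below the other 3 at both edges, and WT replicate 2 lay among the KO libraries at the downstream edge. The edges gave different shares in every library, with 1 to 9 entering reads a library at the upstream edge against 23 to 28 at the downstream edge.

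The Meis1 exon of 95 bases, which changes the end of the protein, had few skipping reads. Skipping reads numbered 2 and 0 in WT and 1 and 0 in KO, against 13 and 16 reads entering at the upstream edge in WT and 16 and 30 in KO. At the downstream edge the entering reads were 0 and 12 in WT and 10 and 14 in KO, so that in WT replicate 1 the skipping share was 13.3% at one edge and 100% (2 reads) at the other. Reads inside it had a density of 55.6% and 90.2% of the rest of the transcript in WT and 93.5% and 80.5% in KO, and the genotypes overlapped. These intervals and shares cover counting error only, and reads are not independent molecules.

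**Figure D5:**
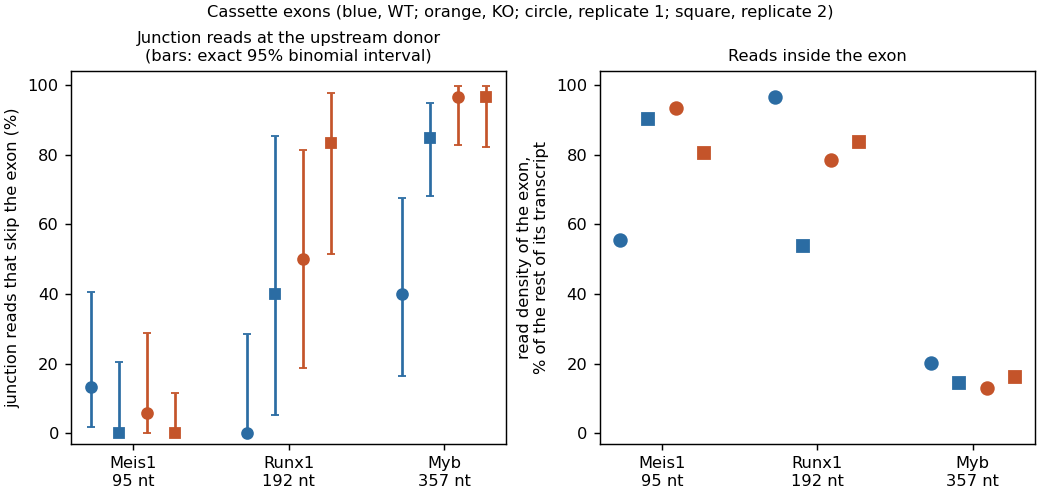
Left, share of junction reads at the upstream exon that skip the cassette exon, with exact 95% binomial intervals; right, read density inside the exon as a percentage of the rest of its transcript; each point is 1 library (blue, WT; orange, KO). The Runx1 skipping share runs from 0% to 83.3%, while the density inside the Runx1 exon runs from 53.7% to 96.8% with both KO libraries between the WT libraries.

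First exons were also compared. Lmo2 has 3 annotated first exons that join 1 second exon by a junction. A further annotated transcript (NM_008505, 1646 bases) shares the most downstream start with NM_001142335 (1519 bases). By its length it keeps the 127-base intron that follows, and it gives no read on these junctions. Reads from the most upstream first exon (chromosome 2, 103798240 to 103810650) were 69.8% (53.9% to 82.8%) and 60.0% (50.9% to 68.7%) of the reads on these junctions in WT and 60.9% (45.4% to 74.9%) and 50.0% (36.8% to 63.2%) in KO. The next first exon gave 18.6% and 30.4% in WT and 23.9% and 40.0% in KO. All these intervals overlap, but they cover counting error within 1 library and are no test between genotypes. The shares rest on 43 and 125 reads in WT and 46 and 60 in KO. The next junction (103810869 to 103816162) had 282 and 671 reads in WT and 368 and 233 in KO. With NM_008505 outside the counted reads, Lmo2 start use as a whole was not measured. An unannotated junction from the most upstream Lmo2 exon (103798240 to 103816162) skips the second exon and had 4 and 20 reads in WT and 19 and 2 in KO; it was high in 1 library of each genotype. It was the 1 unannotated junction with at least 10 reads among the 21 of the 9 factors that had any. The distal Runx1 promoter was in use in every library, with 1 and 2 reads in WT and 6 and 4 in KO on the junction across the long intron between the distal exons and the rest of the gene (chromosome 16, 92695982 to 92825834). The first 2 Erg junctions had no reads in any library, and the first Gata2 junction had 1 read in all, against 29 on the second.

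The stretches of 250 bases upstream of the annotated starts are given for Gata2, Hlf and Meis1, which rose together with Erg, from RefSeq on GRCm38.p6. RefSeq promoters were matched for 7 of the 9 factors, with 11 starts, and Fli1 and Lmo2 had no entry. Searched on both strands were GATAA (GATA factors), GGAAGT (Ets), TGTGGT (Runx), CAGNTG (an E-box), AACNGT (Myb) and TGACAG (Meis), and capitals mark every match. Of 32817 promoters of that length, 22.6%, 19.7%, 14.0%, 44.8%, 22.3% and 15.9% hold them. Meis1 (chr11:19018970-19019219, minus strand) holds 1 Ets and 1 Runx match, Hlf (chr11:90390918-90391167, minus strand) 1 E-box, and neither Gata2 start (chr6:88193641-88193890 and chr6:88198414-88198663, plus strand) holds any. Among the 3 Erg starts, 1 holds a GATA match, an E-box match and 2 Meis matches and the other two hold none. A match is a description of the letters and not of binding, which was not measured.
Gata2 upstream start: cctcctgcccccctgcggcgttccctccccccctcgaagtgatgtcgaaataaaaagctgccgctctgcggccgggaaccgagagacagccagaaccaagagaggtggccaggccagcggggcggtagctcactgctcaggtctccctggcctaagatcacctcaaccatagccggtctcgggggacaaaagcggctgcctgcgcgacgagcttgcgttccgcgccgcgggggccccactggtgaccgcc
Gata2 downstream start: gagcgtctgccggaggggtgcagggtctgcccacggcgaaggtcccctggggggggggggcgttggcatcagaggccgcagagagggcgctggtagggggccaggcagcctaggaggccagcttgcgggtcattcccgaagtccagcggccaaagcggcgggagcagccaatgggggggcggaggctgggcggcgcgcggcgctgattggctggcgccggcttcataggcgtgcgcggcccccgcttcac
Hlf: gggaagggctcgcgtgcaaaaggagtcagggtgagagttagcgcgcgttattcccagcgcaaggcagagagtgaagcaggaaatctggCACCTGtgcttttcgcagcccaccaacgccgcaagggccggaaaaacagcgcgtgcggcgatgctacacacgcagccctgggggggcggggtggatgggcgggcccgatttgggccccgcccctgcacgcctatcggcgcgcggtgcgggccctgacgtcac
Meis1: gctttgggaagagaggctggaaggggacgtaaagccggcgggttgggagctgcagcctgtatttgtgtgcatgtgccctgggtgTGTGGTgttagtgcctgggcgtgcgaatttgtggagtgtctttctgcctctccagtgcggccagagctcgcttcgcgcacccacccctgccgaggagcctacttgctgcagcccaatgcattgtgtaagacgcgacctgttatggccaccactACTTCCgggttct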

How the data were processed

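Per the file headers, the authors counted reads per RefSeq transcript, taking primary alignments only (mapping quality 10 or more, minimum score 0, score clear zone 5). These deposited counts were used for all tests. The deposited RPKM values were made by the authors per length and mapped reads and were used only to compare levels between genes. The third deposited column, a coverage signal in reads per nucleotide, was not used. Junction reads are deposited counts with no header. The aligner, the genome build, the junction rules and any use of strand were not given in the sources used here. Ribosomal RNA was depleted, per the labels' protocols, and 2 libraries shared each sequencing slide. Which ones did is not given, so slide and genotype cannot be told apart.

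For each gene the transcript row with most reads was kept. Counts were scaled with TMM, filtered with filterByExpr and tested with glmQLFTest of edgeR 4.0.16 (R 4.3.3) over 15028 genes; the SE is the log2 fold change divided by the square root of F. Depth on these rows was 33738843 to 56895360 reads a library. An exact permutation test of 2 against 2 has 0.333 as its smallest p, and the calls use a spread estimated across genes. Junction usage was tested with diffSpliceDGE on known junctions with at least 10 reads in genes with at least 2 of them. Both tests were also run on simulated data with planted changes, and the outcome is not reported here. Alternatives were RLE and upper-quartile scaling, DESeq2 1.42.0, limma voom 3.58.1, no filter, summed transcript rows, a block by file number, other read minimums and leaving out each library. The 9 factors, the partner, target and marker lists and the rule for named genes (called list members with the smallest p, the largest change of a list, and the 2 nearest genes in pattern) were chosen with earlier results of these data known. Cdh5, Stab2, Bmi1, Sfpi1, Kit, Cd34, Ldb1, Gata1, Crebbp, Ep300, Tef, Nfil3, Cpa3, Tpsb2 and Cma1 were named for their known roles after their values were seen. Some genes that the rule names are not reported here.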

Additional observations from a re-analysis of the deposited data

How the results depend on the processing

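Over the fits of single factors under an alternative, 85 kept direction and side of the threshold, 12 lost the call and 1 gained it. All 12 losses came from leaving out 1 library. The gain was Fli1, at an adjusted p of 0.0493 with a replicate block by the number that file names of 1 WT and 1 KO library share. The labels do not give this number, so it is not known to pair mice; deviations of libraries with the same number correlated at 0.135 over genes, and with the block 6 of the 9 factors passed. Runx1, not called in any fit, ran from -0.15 without KO replicate 2 to 0.036, a change of sign, without KO replicate 1. Leaving out 1 library gave 1 to 3 factors called in place of 5, and 1022 to 2492 genes in place of 3130. RLE scaling, upper-quartile scaling, DESeq2, limma voom, no filter and summed rows each left the same 5 factors called. Known junctions called were 1 to 2 without 1 library and 4 with unannotated junctions included, in place of 2, and none was in the 9 factors. The longest transcript row was the row already used for each factor except Lmo2, whose WT mean was 78.5 in place of 82.2 RPKM. Lmo2 stayed far above Myb at 17.5, so this choice was no test of the order by WT RPKM. With 2 libraries a group, and 27 to 44 reads a library for Hoxa9, small changes are beyond reach.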
